A study of Mus musculus with 24 samples.

Results

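The transcripts followed here encode the FoxO transcription factors Foxo1, Foxo3 and Foxo4 and 7 genes that muscle and metabolic work ties to them, namely the muscle atrophy ligase genes Fbxo32 and Trim63 and the FoxO-linked genes Pdk4, Irs2, Txnip, Cited2 and Gadd45a. The 10 genes were chosen by name and role, with no threshold on their values. They are 10 of the 35968 genes with a summed count, of which 14577 passed the filter on low counts and were tested, all 10 among them.

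FoxO proteins are forkhead transcription factors held in check by insulin and growth factor signalling: the kinase AKT phosphorylates them, 14-3-3 proteins then bind them, and they leave the nucleus. When that signal weakens they return to the nucleus and switch on genes of proteolysis, autophagy, fuel choice and cell cycle arrest. In skeletal muscle they are best known for driving wasting through the ubiquitin ligases atrogin-1 (Fbxo32) and MuRF1 (Trim63). Because much of this control acts on the FoxO proteins, an mRNA level reports neither their place in the cell nor their activity.

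RNA came from C2C12 cells, a mouse myoblast line, kept undifferentiated at subconfluent density in DMEM with 10% serum and harvested 48 h after siRNA was added. One group received siRNAs against both Fem1b and Keap1 (siFem1b/Keap1), one the Fem1b siRNA (siFem1b), one the Keap1 siRNA (siKeap1) and one a non-targeting control siRNA (siCont), with 3 libraries each. FEM1B is the substrate receptor of a CUL2 ubiquitin ligase that acts in reductive stress, and KEAP1 is the receptor of a CUL3 ligase that keeps the antioxidant factor NRF2 low. All groups thus received an siRNA, and each target was hit with 1 siRNA sequence, so that an effect of the depletion and an effect of that sequence cannot be told apart. The labels call the libraries triplicates without saying that they came from separate cultures. The p-values thus set differences between groups against the scatter of libraries within groups, and that scatter may be technical.

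The siRNAs match the coding sequence of their targets at the following sites, shown because the letters in capitals, which face bases 2 to 8 of the guide strand, also recur in some of the 10 genes.
Fem1b site: gaagatcagtgCAGAATTa
Keap1 site: gcgccaatgttGACACGGa
The Fem1b letters occur 2 times in the 3′ UTR of Fbxo32, 1 time in that of Foxo1 and 1 time in the coding sequence of Pdk4. The Keap1 letters occur 1 time in the coding sequence of Gadd45a. Of 13871 genes searched, 11.98% hold the Fem1b letters in the 3′ UTR and 23.5% anywhere in the transcript, and 2.40% hold the Keap1 letters in the 3′ UTR and 11.2% anywhere.

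Libraries held between 31.9 M and 43.0 M counts on annotated genes. Keap1 averaged 9.38 ± 0.189 CPM in siFem1b/Keap1, 59.2 ± 3.62 CPM in siFem1b and 9.99 ± 1.30 CPM in siKeap1, against 61.8 ± 1.40 CPM in siCont (SD, n = 3 each), where CPM are counts relative to the library size as scaled by TMM. Fem1b averaged 12.7 ± 1.33 CPM in siFem1b/Keap1, 13.2 ± 0.424 CPM in siFem1b and 102 ± 4.06 CPM in siKeap1, against 96.9 ± 3.98 CPM in siCont, so both targets were low in the libraries labelled for them. All 8 myoblast markers (Myod1, Myf5, Pax7, Des, Cdh15, Itga7, Ncam1, Vim) were above 1 TPM in every group. The summed level of 10 markers of differentiated myocytes, among them Myog, Myh3 and Acta1, lay between 229 and 232 TPM in siFem1b/Keap1, between 341 and 389 TPM in siFem1b and between 25.3 and 26.01 TPM in siKeap1, against 21.4 to 27.4 TPM in siCont. Acta1 alone averaged 168.5 TPM in siFem1b/Keap1, 84.3 TPM in siFem1b and 15.7 TPM in siKeap1, against 8.21 TPM in siCont. Myog had another order, at 5.98, 73.2, 0.0497 and 1.74 TPM in the same groups, so the sum does not stand for each marker. Among the other marker sets, summed epithelial markers lay between 42.6 and 44.4 TPM in siFem1b/Keap1, 16.4 and 18.8 TPM in siFem1b and 67.5 and 69.9 TPM in siKeap1, against 10.6 to 12.8 TPM in siCont. Krt14 made up most of each group's sum, with a mean of 38.7 TPM in siFem1b/Keap1, 16.1 TPM in siFem1b and 67.8 TPM in siKeap1, against 11.2 TPM in siCont, while Cdh1 averaged 1.52, 0.631, 0.117 and 0.0546 TPM and Krt8 2.88, 1.119, 0.426 and 0.176 TPM in the same order. Epcam was at 0 counts in siKeap1, Adgre1, a macrophage marker, in all groups, and Adipoq, an adipocyte marker, in siFem1b and siKeap1. Adipocyte markers averaged a sum of 45.8 TPM in siFem1b/Keap1, 34.0 TPM in siFem1b and 34.9 TPM in siKeap1, against 26.7 TPM in siCont. Most of it was Pparg, at 38.3, 27.9, 31.0 and 24.3 TPM in the same order. Leukocyte markers averaged a sum of 9.35, 4.25, 5.87 and 2.80 TPM, most of it Cd68 (8.97, 3.80, 5.40 and 2.53 TPM). In any library these sums were at most 46.7 and 9.74 TPM, and endothelial markers summed to at most 2.04 TPM. In bulk RNA, more cells of a kind and more RNA per cell cannot be told apart.

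The comparisons ask what the loss of each ligase receptor, alone and together, does to these mRNAs. Most of the 10 genes changed in each depletion. A gene counts as called where its adjusted p in edgeR's quasi-likelihood test, corrected over all 14577 genes, was under 0.05. In siFem1b/Keap1 against siCont, 6 of 10 rose and 4 fell, where 67.5% of all tested genes were called (33.8% higher and 33.7% lower). In siFem1b against siCont, 6 of 10 rose and 2 fell, where 62.1% of all genes were called (30.0% higher, 32.1% lower). In siKeap1 against siCont, 5 of 10 rose and 3 fell, where 42.2% of all genes were called (18.4% higher, 23.8% lower). Trim63 is among the rises in both groups with the Fem1b siRNA, and it had to differ there, since it passed the filter on low counts only through those groups. The 3 libraries of both groups did not overlap for 10 of the 10 genes in siFem1b/Keap1 (70.3% of all genes), 8 in siFem1b (63.6%) and 9 in siKeap1 (51.2%), each against siCont. These comparisons share the siCont libraries, and many of all genes were called in each. Whether the counts set the 10 genes apart from the rest was not tested. Without the TMM scaling, that is with library totals alone, the split over all genes shifted: 62.1% of called genes were then higher in siFem1b/Keap1 against siCont, beside 50.1% with TMM, and 60.6% in siFem1b against siCont, beside 48.3%. For siKeap1 against siCont this share was 43.6% with TMM and 50.5% with library totals. It was 50.2% in the first run alone and 49.95% in the second. Leaving out siFem1b replicate 2 or 3 or siFem1b/Keap1 replicate 1 or 3 gave 49.7% to 50.6%. The excess of falls over all genes in siKeap1 was thus not stable.

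**Figure D1:**
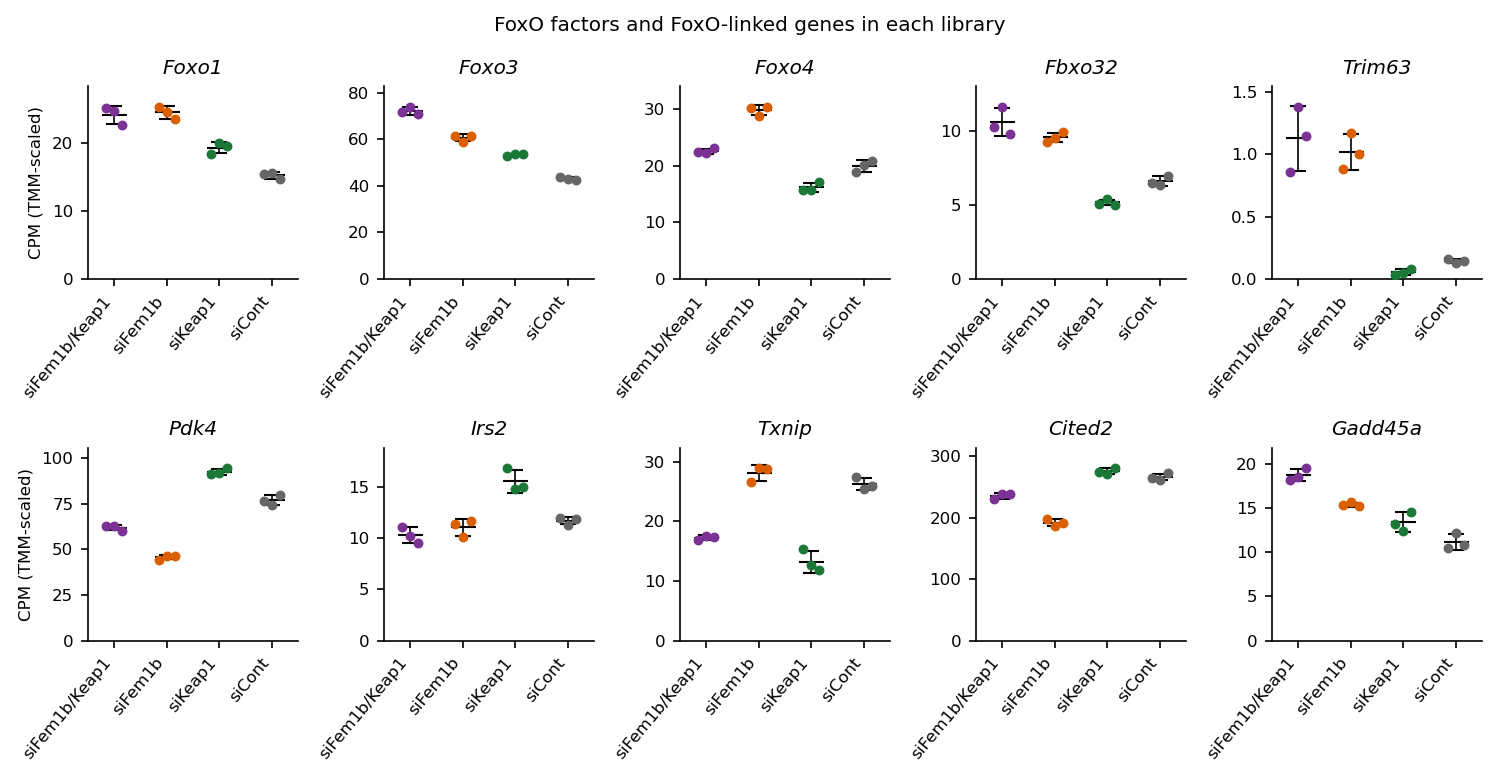
Level of each of the 10 genes in every library, in TMM-scaled CPM, with 3 points per group and a bar for the mean ± SD. The axes start at 0 and differ between genes. Foxo3 and Gadd45a are highest in siFem1b/Keap1 and lowest in siCont, Foxo4 is highest in siFem1b and lowest in siKeap1, and Pdk4 runs in the opposite order to Foxo4.

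The FoxO factors did not move alike: Foxo1 and Foxo3 rose in all 3 depletions, whereas Foxo4 rose in siFem1b and fell in siKeap1. Foxo1 (chr3:52268336-52353221, plus strand, GRCm38), which in liver and muscle serves fasting metabolism, was the least abundant of the 3 per length, at 2.53 ± 0.0528 TPM in siCont (SD, n = 3). Foxo1 measured 25.2, 24.7 and 22.7 CPM in the siFem1b/Keap1 libraries, 25.4, 24.6 and 23.6 CPM in the siFem1b libraries and 18.5, 19.95 and 19.7 CPM in the siKeap1 libraries, against 15.5, 15.5 and 14.7 CPM in the siCont libraries. All depleted libraries lay above all siCont libraries, and the siFem1b/Keap1 and siFem1b libraries overlapped. The log2 fold change was 0.67 ± 0.059 (adjusted p = 7.14e-09) in siFem1b/Keap1, 0.69 ± 0.059 (adjusted p = 7.26e-09) in siFem1b and 0.35 ± 0.06 (adjusted p = 0.000109) in siKeap1, where ± gives the standard error. Between siFem1b/Keap1 and siFem1b it was -0.02 ± 0.056 (adjusted p = 0.834), which did not pass.

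Foxo3 (chr10:42181841-42276755, minus strand), the member most tied to muscle wasting and autophagy, averaged 10.5 ± 0.349 TPM in siCont, close to Foxo4 at 10.2 ± 0.431 TPM. Foxo3 measured 71.8, 73.96 and 70.7 CPM in the siFem1b/Keap1 libraries, 61.6, 58.8 and 61.3 CPM in the siFem1b libraries and 52.96, 53.5 and 53.7 CPM in the siKeap1 libraries, against 43.8, 43.00 and 42.5 CPM in the siCont libraries. The groups formed 4 separate levels, siFem1b/Keap1 above siFem1b above siKeap1 above siCont, with no overlap between neighbours. Its log2 fold change against siCont was 0.74 ± 0.039 (adjusted p = 4.93e-12) in siFem1b/Keap1, 0.49 ± 0.039 (adjusted p = 3.04e-09) in siFem1b and 0.31 ± 0.04 (adjusted p = 3.62e-06) in siKeap1. The double depletion also stood 0.25 above siFem1b and 0.43 above siKeap1 on the log2 scale (adjusted p = 2.80e-05 and 1.11e-08).

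Foxo4 (chrX:101254528-101260873, plus strand), a FoxO member that is also under AKT control, had a different order. Foxo4 measured 22.5, 22.2 and 23.1 CPM in the siFem1b/Keap1 libraries, 30.3, 28.8 and 30.4 CPM in the siFem1b libraries and 15.8, 15.8 and 17.2 CPM in the siKeap1 libraries, against 18.9, 20.1 and 20.9 CPM in the siCont libraries. The siFem1b libraries were the highest and the siKeap1 libraries the lowest, and no neighbouring groups overlapped. Relative to siCont its log2 level changed by 0.18 ± 0.056 (adjusted p = 0.00877) in siFem1b/Keap1, 0.58 ± 0.055 (adjusted p = 3.02e-08) in siFem1b and -0.30 ± 0.058 (adjusted p = 0.000371) in siKeap1. The small rise in siFem1b/Keap1 missed the threshold in the second run alone (adjusted p = 0.0574), with an offset for transcript length (0.0561) and without siCont replicate 1 (log2 fold change 0.14, adjusted p = 0.0613).

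Summed per length, the 3 FoxO mRNAs reached 34.2 ± 0.54 TPM in siFem1b/Keap1, 36.2 ± 0.582 TPM in siFem1b and 24.2 ± 0.188 TPM in siKeap1, against 23.3 ± 0.542 TPM in siCont (SD, n = 3 each). Every library with the Fem1b siRNA was above every library without it. The share of Foxo3 in that sum was 51.6 ± 1.07% in siFem1b/Keap1, 42.3 ± 0.825% in siFem1b and 52.8 ± 0.979% in siKeap1, against 45.2 ± 1.05% in siCont. In siFem1b, Foxo4 held 45.2 ± 0.651% of the sum, against 43.9 ± 1.30% in siCont.

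**Figure D2:**
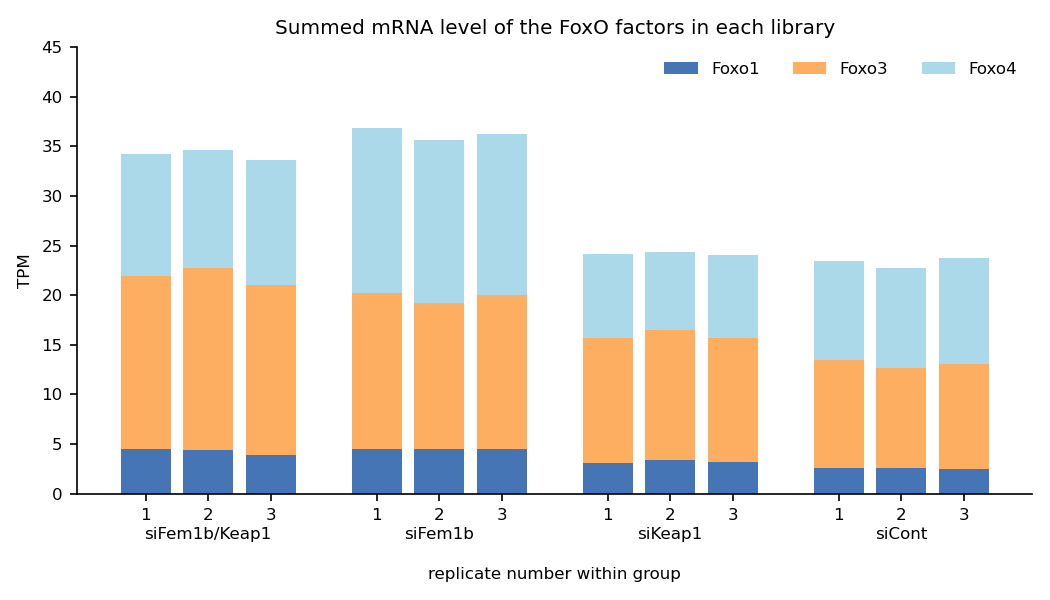
Stacked TPM of Foxo1, Foxo3 and Foxo4 in each library, grouped by siRNA, with the replicate number under each bar. The sum averages 34.2 TPM in siFem1b/Keap1, 36.2 TPM in siFem1b and 24.2 TPM in siKeap1, against 23.3 TPM in siCont, and the Foxo4 segment is shortest in siKeap1.

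Of the muscle atrophy ligase genes, Fbxo32 was higher wherever Fem1b was depleted and lower when Keap1 alone was depleted, and Trim63 had few counts in any library. Fbxo32 (chr15:58175879-58214932, minus strand) encodes atrogin-1, the substrate receptor of an SCF ubiquitin ligase that rises in wasting muscle. Fbxo32 measured 10.3, 11.6 and 9.81 CPM in the siFem1b/Keap1 libraries, 9.27, 9.54 and 9.88 CPM in the siFem1b libraries and 5.08, 5.38 and 5.02 CPM in the siKeap1 libraries, against 6.47, 6.34 and 6.97 CPM in the siCont libraries. The siFem1b/Keap1 and siFem1b libraries overlapped each other and lay above all siCont libraries, and all siKeap1 libraries lay below them. The log2 fold change was 0.68 ± 0.081 (adjusted p = 5.07e-07) in siFem1b/Keap1, 0.53 ± 0.082 (adjusted p = 1.41e-05) in siFem1b and -0.35 ± 0.088 (adjusted p = 0.00293) in siKeap1, and between siFem1b/Keap1 and siFem1b it was 0.14 ± 0.078 (adjusted p = 0.149).

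Trim63 (chr4:134315120-134329629, plus strand) encodes MuRF1, a RING ligase of the sarcomere that acts on thick filament proteins. It was nearly silent in these cells: 33, 53 and 38 counts in the siFem1b/Keap1 libraries, 36, 42 and 38 counts in the siFem1b libraries and 1, 2 and 3 counts in the siKeap1 libraries, against 6, 4 and 6 counts in the siCont libraries. All libraries with the Fem1b siRNA were above all libraries without it. From summed counts scaled by library size, Trim63 was 7.80-fold (95% interval 4.62 to 14.1) of siCont in siFem1b/Keap1, 7.0-fold (4.13 to 12.7) in siFem1b and 0.383-fold (0.123 to 1.03) in siKeap1, with exact Clopper-Pearson intervals that cover counting error only. Trim63 passed the filter on low counts through the groups with the Fem1b siRNA, so it had to differ between them and the others. Trim63 has 2 coding transcripts. Trim63-202 held 90.6 ± 4.71% of the estimated Trim63 abundance in siFem1b/Keap1 and 73.3 ± 31.7% in siFem1b, and was listed at 0 in every siKeap1 and siCont library. Trim63-201 was listed at 0 in every siFem1b/Keap1 and siKeap1 library, held up to 62.7% in a siFem1b library, and held 12.9 ± 11.8% in siCont. In the siKeap1 libraries the few counts were all assigned to non-coding transcripts of the gene. These also held most of the abundance in siCont, with 63.4 ± 30.2% for Trim63-203 and 23.8 ± 41.1% for Trim63-204. The ratios above count coding and non-coding transcripts together. The lower count in siKeap1 did not pass the test (adjusted p = 0.0734), and siFem1b/Keap1 was 1.11-fold (0.858 to 1.45) of siFem1b.

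The promoter of Trim63 is shown because a FoxO site lies beside a glucocorticoid receptor palindrome in it. The 250 bases before the RefSeq start (chr4:134314870-134315119, plus strand, GRCm38.p6) read as follows, with both motifs in capitals.
Trim63: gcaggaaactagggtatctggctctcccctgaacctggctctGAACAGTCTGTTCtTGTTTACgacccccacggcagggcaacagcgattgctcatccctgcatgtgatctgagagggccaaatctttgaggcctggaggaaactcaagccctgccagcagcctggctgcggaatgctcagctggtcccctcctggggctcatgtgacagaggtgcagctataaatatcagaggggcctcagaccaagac
The palindrome, searched as GAACA and TGTTC with any 3 bases between them, spans the bases 208 to 196 upstream of the start, and the FoxO site, searched as GTAAACA, spans 194 to 188 upstream on the opposite strand. Of 32851 RefSeq promoter windows of this length, 3.17% hold the FoxO site on either strand and 0.0396% hold the palindrome, which was searched for after the sequence had been seen. The 8 of 10 genes with a RefSeq window were searched, and Foxo1, Foxo3, Pdk4 and Gadd45a had no match to any of the 5 motifs. A match is a run of letters and does not show binding.

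Most markers of differentiated myocytes, and both ligase genes, were higher against siCont in the groups with the Fem1b siRNA. Of the 10 markers, 9 rose in siFem1b/Keap1 against siCont (67.5% of all genes called), 10 rose in siFem1b (62.1%), and 1 rose and 5 fell in siKeap1 (42.2%). Myog, the factor that commits myoblasts to fusion, had log2 fold changes of 1.68 in siFem1b/Keap1, 5.26 in siFem1b and -5.27 in siKeap1. It measured 0.0312, 0.0260 and 0.0528 CPM in the siKeap1 libraries, so the size of that fall rests on values near the floor. Mymx, a fusion peptide gene, was at 0 counts in siKeap1, but it was also near the floor in siCont, at 0, 0.306 and 0 TPM. Like Trim63, Mymx passed the filter on low counts only through the groups with the Fem1b siRNA. Its rise in siFem1b, 1 of the 10 counted above, was thus set in advance. In siCont 3 of the 10 markers averaged under 1 TPM, and how far the filter shaped the other counts was not tested. In siFem1b/Keap1 against siFem1b, 9 of the 10 markers were lower and 1 was higher (43.1% of all genes called), whereas neither Fbxo32 nor Trim63 passed the test. The part of differentiation in the ligase results was not tested.

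The metabolic genes showed 3 different patterns. Pdk4 (chr6:5483351-5496309, minus strand) encodes the kinase that shuts pyruvate dehydrogenase and spares glucose in fasting. Pdk4 measured 62.6, 62.8 and 60.4 CPM in the siFem1b/Keap1 libraries, 44.4, 46.6 and 46.5 CPM in the siFem1b libraries and 91.6, 91.98 and 94.7 CPM in the siKeap1 libraries, against 76.6, 74.5 and 80.2 CPM in the siCont libraries. The siKeap1 libraries were the highest and the siFem1b libraries the lowest, with no overlap between any groups, so Pdk4 fell where Fem1b was depleted while Foxo1 and Foxo3 rose there. On the log2 scale Pdk4 changed by -0.32 ± 0.041 (adjusted p = 1.27e-06) in siFem1b/Keap1, -0.75 ± 0.041 (adjusted p = 1.60e-11) in siFem1b and 0.27 ± 0.04 (adjusted p = 2.44e-05) in siKeap1. The coding sequence of Pdk4 holds 1 match to the Fem1b siRNA letters, which 23.5% of the genes searched hold somewhere in the transcript. Foxo1 and Fbxo32, with matches in the 3′ UTR, rose in siFem1b. The part of these matches in the changes was not tested.

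Irs2 (chr8:10984681-11008458, minus strand) encodes an adaptor between the insulin receptor and PI3 kinase, through which FoxO activity feeds back on insulin signalling. Irs2 measured 11.1, 10.2 and 9.53 CPM in the siFem1b/Keap1 libraries, 11.3, 10.1 and 11.7 CPM in the siFem1b libraries and 16.8, 14.8 and 14.95 CPM in the siKeap1 libraries, against 11.9, 11.3 and 11.9 CPM in the siCont libraries. The siKeap1 libraries stood above all others, and the remaining groups were close together. The log2 fold change was -0.19 ± 0.079 (adjusted p = 0.0443) in siFem1b/Keap1, -0.08 ± 0.078 (adjusted p = 0.372) in siFem1b and 0.41 ± 0.076 (adjusted p = 0.000252) in siKeap1. The small fall in siFem1b/Keap1 was lost under 12 of 23 alternatives, among them library totals alone (-0.06, adjusted p = 0.501) and leaving out siCont replicate 1 or 3 or siFem1b/Keap1 replicate 2 or 3 (adjusted p between 0.0923 and 0.188). Between siFem1b/Keap1 and siKeap1, Irs2 was lower, with a log2 fold change of -0.59 ± 0.077 (adjusted p = 1.82e-06). The 250 bases before its RefSeq start (chr8:11008930-11009179, minus strand, GRCm38.p6), which lies upstream of the GENCODE start, are shown because an antioxidant response element core and an E-box overlap there; both are in capitals as 1 run.
Irs2: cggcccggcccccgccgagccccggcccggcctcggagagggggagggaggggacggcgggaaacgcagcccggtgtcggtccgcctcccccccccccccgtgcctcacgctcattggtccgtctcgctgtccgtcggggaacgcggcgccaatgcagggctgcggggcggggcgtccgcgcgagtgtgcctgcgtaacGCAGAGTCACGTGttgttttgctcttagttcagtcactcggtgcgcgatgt
The core, searched as TGACNNNGC, spans the bases 51 to 43 upstream on the opposite strand, and the E-box CACGTG spans 44 to 39. Of all windows, 10.2% hold the core and 6.02% hold the E-box, which Cited2 also has, 153 to 148 bases upstream.

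Txnip (chr3:96557957-96561883, plus strand) encodes an arrestin that binds thioredoxin and restrains glucose uptake. Txnip measured 16.8, 17.6 and 17.4 CPM in the siFem1b/Keap1 libraries, 26.6, 28.9 and 28.8 CPM in the siFem1b libraries and 15.3, 12.6 and 11.8 CPM in the siKeap1 libraries, against 27.4, 25.5 and 25.99 CPM in the siCont libraries. Both groups that received the Keap1 siRNA lay below all other libraries, with siKeap1 the lowest, and the siFem1b and siCont libraries overlapped. Krt14, the keratin gene given above, was highest in the same groups, and its part in the Txnip result was not tested. The log2 fold change was -0.61 ± 0.073 (adjusted p = 5.16e-07) in siFem1b/Keap1, 0.10 ± 0.07 (adjusted p = 0.25) in siFem1b and -0.998 ± 0.075 (adjusted p = 3.47e-09) in siKeap1. The change in siFem1b passed only with library totals alone (0.19, adjusted p = 0.0246). Between siFem1b/Keap1 and siFem1b the log2 fold change was -0.70 ± 0.072 (adjusted p = 2.80e-07). The Txnip promoter (chr3:96557707-96557956, plus strand, GRCm38.p6) holds a FoxO site ahead of a repeated CACGAG, a core of carbohydrate response elements, and its 250 bases before the RefSeq start read as follows, with these letters in capitals.
Txnip: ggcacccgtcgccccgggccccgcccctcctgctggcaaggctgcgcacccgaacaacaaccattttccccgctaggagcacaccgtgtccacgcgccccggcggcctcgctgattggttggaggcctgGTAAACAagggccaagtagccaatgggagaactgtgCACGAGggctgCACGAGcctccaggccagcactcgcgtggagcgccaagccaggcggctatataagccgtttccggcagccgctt
The FoxO site spans the bases 121 to 115 upstream, and the copies of CACGAG span 85 to 80 and 74 to 69. CACGAG, added after the sequence had been seen, occurs in 5.37% of all windows.

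Cited2 (chr10:17723218-17725674, plus strand), a CBP/p300-binding transcriptional coregulator that restrains HIF-1, was the most abundant of the 10 genes, at 221 ± 12.7 TPM in siCont (SD, n = 3). Per length, Pdk4 followed at 39.05 ± 3.01, Gadd45a at 18.4 ± 0.856 and Txnip at 14.6 ± 1.38 TPM, the FoxO genes were between 2.53 and 10.5 TPM, and Irs2, Fbxo32 and Trim63 averaged 2.66 ± 0.191, 1.37 ± 0.114 and 0.181 ± 0.0495 TPM. Cited2 measured 230.2, 238 and 238 CPM in the siFem1b/Keap1 libraries, 197, 186 and 191 CPM in the siFem1b libraries and 274, 271 and 280.4 CPM in the siKeap1 libraries, against 265, 261 and 272 CPM in the siCont libraries. The siFem1b libraries were the lowest, the siFem1b/Keap1 libraries came next, and siKeap1 and siCont overlapped. On the log2 scale Cited2 changed by -0.17 ± 0.036 (adjusted p = 0.000259) in siFem1b/Keap1, -0.47 ± 0.036 (adjusted p = 1.37e-09) in siFem1b and 0.05 ± 0.036 (adjusted p = 0.3) in siKeap1. The fall in siFem1b/Keap1 missed the threshold with library totals alone (-0.05, adjusted p = 0.199), a scaling that raises the median of all genes by 0.12 in that comparison.

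Gadd45a (chr6:67035096-67037457, minus strand), a stress-induced gene of growth arrest that also rises in denervated muscle, followed the order of Foxo3. Gadd45a measured 18.2, 18.4 and 19.5 CPM in the siFem1b/Keap1 libraries, 15.3, 15.6 and 15.2 CPM in the siFem1b libraries and 13.2, 12.4 and 14.6 CPM in the siKeap1 libraries, against 10.4, 12.2 and 10.8 CPM in the siCont libraries. The siFem1b/Keap1 libraries were the highest and the siCont libraries the lowest, and no groups overlapped. Against siCont the log2 change was 0.75 ± 0.072 (adjusted p = 2.33e-08) in siFem1b/Keap1, 0.47 ± 0.073 (adjusted p = 1.60e-05) in siFem1b and 0.27 ± 0.074 (adjusted p = 0.00599) in siKeap1. The rise in siKeap1 missed the threshold without siKeap1 replicate 3 (0.20, adjusted p = 0.0515). The difference between siFem1b and siKeap1, 0.20 ± 0.071 (adjusted p = 0.0213), was lost without any 1 of siFem1b replicates 2 and 3 and siKeap1 replicates 1 and 2 (adjusted p between 0.0542 and 0.127).

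**Figure D3:**
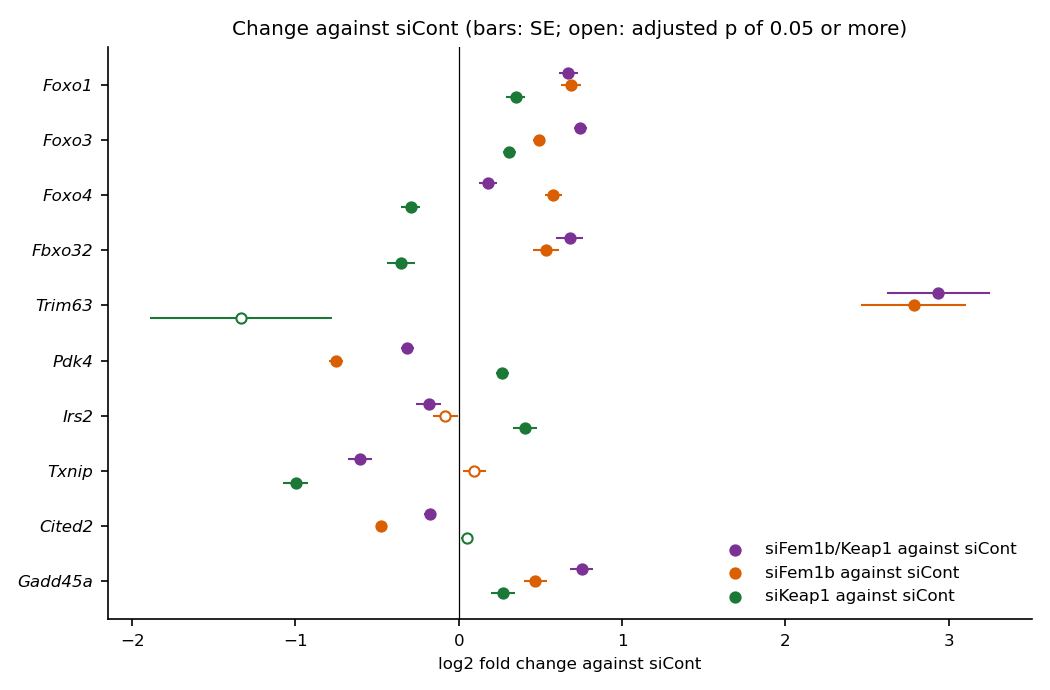
Log2 fold change of each gene in siFem1b/Keap1, siFem1b and siKeap1 against siCont, with the standard error as a bar; open points did not pass an adjusted p of 0.05. Foxo4, Fbxo32 and Pdk4 lie on opposite sides of 0 in siFem1b and siKeap1, and Trim63 has the widest bars.

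Set side by side, siFem1b and siKeap1 had called changes in opposite directions in 3 genes (Foxo4, Fbxo32 and Pdk4) and in the same direction in 3 (Foxo1, Foxo3 and Gadd45a), and the other 4 were called in 1 of the depletions. In siFem1b against siKeap1, 7 of 10 genes were higher and 3 lower (Pdk4, Irs2 and Cited2), where 63.9% of all genes were called (32.1% higher, 31.8% lower), and the groups did not overlap for 10 of the 10 (67.6% of all genes). The largest of these differences outside Trim63 were in Txnip (1.09 ± 0.075, adjusted p = 2.31e-10) and Pdk4 (-1.02 ± 0.041, adjusted p = 1.09e-13). In siFem1b/Keap1 against siKeap1, the same 7 were higher and the same 3 lower, where 63.6% of all genes were called (32.0% higher, 31.6% lower), and the groups again did not overlap for 10 (69.4% of all genes). Trim63 is among the 7 and the 10 in both comparisons with siKeap1. It had to differ there, since it passed the filter on low counts only through the groups with the Fem1b siRNA. In siFem1b/Keap1 against siFem1b, 4 were higher (Foxo3, Pdk4, Cited2 and Gadd45a) and 2 lower (Foxo4 and Txnip), where 43.1% of all genes were called (21.3% higher, 21.8% lower), and the groups did not overlap for 6 (50.8% of all genes).

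Whether both depletions together gave the sum of the single changes on the log2 scale was tested as an interaction. It was called in 4 of 10 genes, 2 higher and 2 lower, where 11.4% of all genes were called (6.11% higher, 5.32% lower). That split over all genes was not stable: 53.5% of called genes were higher, beside 32.9% in the first run alone, 36.4% in the second run alone, and 37.9% to 38.8% without siFem1b replicate 2 or 3 or siFem1b/Keap1 replicate 1 or 3. Foxo1 rose by 0.67 in siFem1b/Keap1, short of the 1.03 that the single changes add up to, a gap of -0.36 ± 0.082 (adjusted p = 0.0062). Fbxo32 rose by 0.68, above a sum of 0.18, a gap of 0.50 ± 0.12 (adjusted p = 0.00839), although the second run alone did not pass (adjusted p = 0.0821). Irs2 rose in siKeap1 against siCont but changed by -0.10 in siFem1b/Keap1 against siFem1b, which was not called, and the gap to the sum was -0.51 ± 0.11 (adjusted p = 0.00445). Cited2 fell less than the sum, with a gap of 0.25 ± 0.051 (adjusted p = 0.00276). Foxo3, Foxo4 and Gadd45a had gaps of -0.06, -0.11 and 0.01 with standard errors of 0.055, 0.079 and 0.10, none past the threshold. Txnip had a gap of 0.30 ± 0.1 (adjusted p = 0.0778), which passed without siKeap1 replicate 1 (0.41, adjusted p = 0.00737), and Pdk4 a gap of 0.17 ± 0.058 (adjusted p = 0.0705), which passed without siCont replicate 2 (0.19, adjusted p = 0.0434). Trim63, at 1 to 3 counts in the siKeap1 libraries, had a gap of 1.48 ± 0.6 (adjusted p = 0.129), which did not pass either and ran between 1.07 and 3.62 under the alternatives, not called in any of the 21 that gave a value.

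**Figure D4:**
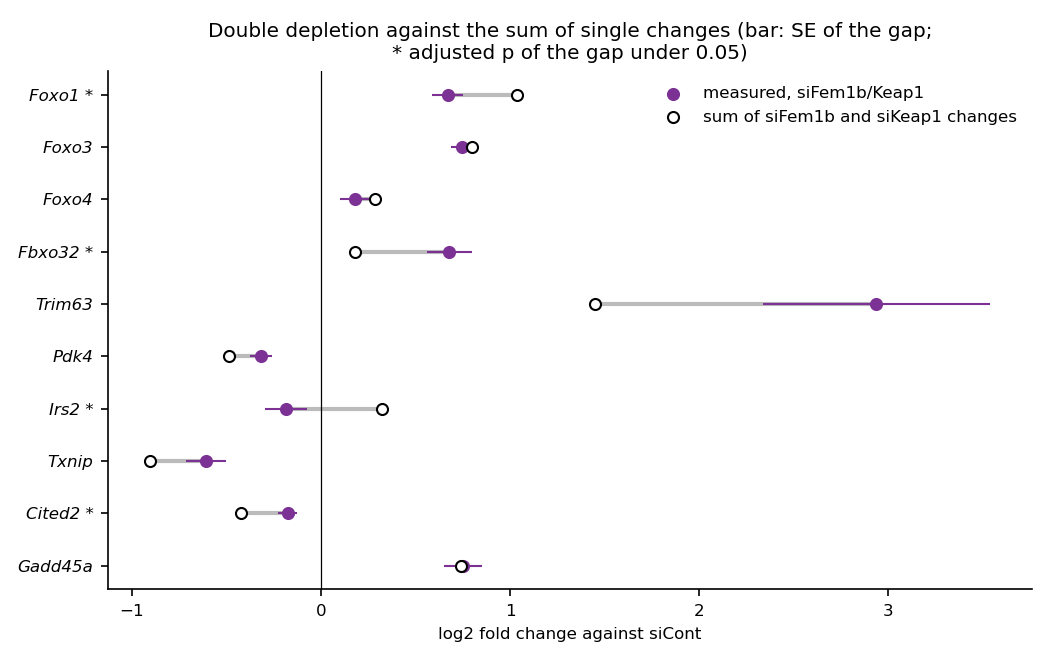
Log2 fold change of each gene in siFem1b/Keap1 against siCont (filled) beside the sum of the siFem1b and siKeap1 changes (open), with the standard error of the gap as a bar. The asterisk marks the 4 genes whose gap passed an adjusted p of 0.05: Foxo1, Fbxo32, Irs2 and Cited2.

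Related genes were counted beside the share of all genes called against siCont, which was 67.5% in siFem1b/Keap1, 62.1% in siFem1b and 42.2% in siKeap1. Of 29 kinases and modifiers upstream of FoxO, 2 rose and 12 fell in siFem1b/Keap1 against siCont (median log2 fold change -0.10, all genes 0.01), 7 rose and 11 fell in siFem1b (0.04, all genes -0.01), and 2 rose and 15 fell in siKeap1 (-0.13, all genes -0.02). Sgk1, a kinase related to AKT that phosphorylates FoxO3, had log2 fold changes of -0.35 in siFem1b/Keap1, -1.15 in siFem1b and 1.30 in siKeap1, all called. It measured 83.9, 85.8 and 82.8 CPM in siFem1b/Keap1, 46.7, 49.4 and 48.9 CPM in siFem1b and 268, 259.6 and 266 CPM in siKeap1, against 104, 107 and 110.3 CPM in siCont. Skp2, the F-box protein that marks FOXO1 and p27 for degradation, fell in all 3, by 1.20 in siFem1b/Keap1, 1.11 in siFem1b and 0.31 in siKeap1 on the log2 scale. Irs1, the companion adaptor of Irs2, also fell in all 3 (-0.37, -0.19 and -0.48 in that order), whereas Irs2 rose in siKeap1.

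Among 28 tested of 34 other FoxO targets, 15 rose and 9 fell in siFem1b/Keap1 against siCont (median 0.16), 14 rose and 6 fell in siFem1b (0.13), and 5 rose and 10 fell in siKeap1 (-0.06), against the same 67.5%, 62.1% and 42.2% of all genes. Ccng2, an atypical cyclin of quiescent cells, rose by 1.47 in siFem1b/Keap1 and 1.48 in siFem1b and fell by 0.32 in siKeap1 on the log2 scale, the directions of Fbxo32. Cdkn1b, which encodes the cell cycle inhibitor p27, went the same way (0.22, 0.55 and -0.41), while Cdkn1a, which encodes p21, rose in all 3 (1.35, 1.05 and 0.66). Cat, the catalase gene that NRF2 is also known to drive, rose by 0.78 in siFem1b/Keap1 and 1.57 in siKeap1 and fell by 0.44 in siFem1b on the log2 scale.

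Of 25 tested of 26 other atrophy-linked ligases and regulators, 10 rose and 6 fell in siFem1b/Keap1 against siCont (median 0.03), 11 rose and 7 fell in siFem1b (0.05), and 9 rose and 10 fell in siKeap1 (-0.07), against 67.5%, 62.1% and 42.2% of all genes. Trim55 and Trim54, the MuRF2 and MuRF3 relatives of Trim63, were called in all 3 depletions. Trim55 rose by 1.37 in siFem1b/Keap1, 1.24 in siFem1b and 0.33 in siKeap1, and Trim54 by 1.79, 0.38 and 2.21 on the log2 scale, most in siKeap1, where Trim63 had its lowest counts. Among 15 tested of 16 paralogs of the 10 genes, 9 rose and 6 fell in siFem1b/Keap1 (median 0.31), 7 rose and 5 fell in siFem1b (0.25), and 5 rose and 5 fell in siKeap1 (-0.03). The fourth FoxO gene, Foxo6, rose by 0.78, 1.77 and 0.32 in siFem1b/Keap1, siFem1b and siKeap1, and Pdk1, the hypoxia-responsive relative of Pdk4, fell in all 3 (-1.19, -0.79 and -0.87), also in siKeap1, where Pdk4 rose. Of the 8 tested of 10 thioredoxin and glucose-sensing partners of Txnip, 2 rose and 5 fell in siFem1b/Keap1 (median -0.24), 7 fell in siFem1b (-0.37), and 3 rose and 4 fell in siKeap1 (-0.07). No list was tested against the share of all genes called. Slc2a1, the glucose transporter GLUT1 that TXNIP draws off the cell surface, fell by 2.31 in siFem1b/Keap1, 1.02 in siFem1b and 1.49 in siKeap1, and Txnrd1, which reduces thioredoxin, changed by 0.48, -0.42 and 1.41.

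Across the 12 libraries, which form 4 groups and are thus not 12 independent points, the log2 levels of some of the 10 genes moved closely together. Foxo4 and Pdk4 ran opposite to each other (Pearson r = -0.98), Pdk4 ran with Cited2 (0.97), Fbxo32 with Trim63 (0.97) and Foxo3 with Gadd45a (0.96). Before the log, 0.5 was added to each CPM, which weighs on Trim63, at 0.0312 to 1.38 CPM. Trim63 also passed the filter only through the groups with the Fem1b siRNA. Among 10210 genes of at least 5 CPM, the closest to Foxo1 was Enpp3 (r = 0.99), to Foxo3 Lima1 (0.997), to Foxo4 Glipr2 (0.99), to Fbxo32 Rab5b (0.99) and to Pdk4 Hsph1 (0.997). The closest to Irs2 was Zfp36l2 (0.95), to Txnip Aff1 (0.99), to Cited2 Wdfy1 (0.98) and to Gadd45a Myl9 (0.99), and among 10211 genes Trp53inp2 was the closest to Trim63 (0.99).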

How the data were processed

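Poly(A)-selected RNA from 12 libraries, 3 for each of 4 siRNA groups, was sequenced in 2 runs each, the second a technical repeat per the labels. Reads were assigned to transcripts with kallisto 0.44.0 on build mm10, per the submitters' processing notes, and trimming and filtering are not given in the sources used here. The deposited tables list, for 118489 transcripts, an estimated count (expected counts, with shared reads divided by an estimate) and, as the authors' tool wrote them, TPM and an effective length. Of the transcripts, 116728 (98.5%) matched GENCODE M21 (GRCm38) by identifier, and the others, with 0.608% to 0.637% of the counts, were left out.

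The deposited estimated counts were summed per gene and over both runs and rounded. TPM are the mean of both runs and serve to compare genes, since they correct for length. Genes were filtered with filterByExpr, scaled by TMM (factors 0.952 to 1.045) and fitted with 1 term per group over all 12 libraries in edgeR 4.0.16 (R 4.3.3, robust quasi-likelihood, 2-sided). Within each comparison the Benjamini-Hochberg adjustment ran over 14577 genes, at a threshold of 0.05. The interaction is the siKeap1 effect in the presence of siFem1b minus that in its absence. The test was also run on simulated data with few changed genes, all in siFem1b. Such data cannot check the scaling where many genes are called, as here. Libraries held 31.9 M to 43.0 M counts. Trim63, with 1 to 53 counts per library, is limited by counting error and is given as ratios of counts.

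All 10 genes are described against siCont, and in the other comparisons they are counted, with those the text turns on given by value. From 5 related gene lists, genes were named from up to 4 with the smallest p in siFem1b and up to 4 in siKeap1 against siCont, at a mean of at least 5 CPM. For each of the 10 genes, the 2 genes with the most similar level (Pearson r of the log2 of CPM plus 0.5) were found and the first is named. The genes, lists and tests were chosen with earlier results of these data known. Promoters of 8 of the 10 genes are from RefSeq (GRCm38.p6), and those of Foxo4 and Fbxo32 were not analysed here. Motifs were searched on both strands. Alternatives were DESeq2 1.42.0 size factors or library totals in place of TMM, the DESeq2 Wald test, limma-voom (limma 3.58.1), no filter, at least 5 CPM in 3 libraries, either run alone, an offset for effective length, a replicate block, a fit of the compared groups only, and each library left out in turn.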

Additional observations from a re-analysis of the deposited data

Results flagged for a closer look

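Of the 10 genes, 4 were called in edgeR's interaction test, where 11.4% of all genes were called. Their response to the Keap1 siRNA differed with the presence of the Fem1b siRNA. The log2 effect of adding the Keap1 siRNA differed by -0.3649 for Foxo1: it was -0.02 with the Fem1b siRNA and 0.35 without it. For Fbxo32 it differed by 0.4993, with 0.14 in the presence of the Fem1b siRNA and -0.35 in its absence, although this interaction did not pass in the second run alone (adjusted p = 0.0821). For Irs2 it differed by -0.508, with -0.10 and 0.41 in that order, and for Cited2 by 0.2504, with 0.30 and 0.05.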

How the results depend on the processing

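Each of the 10 genes was recomputed in the 6 pairwise comparisons and the interaction under 11 alternatives and with each library left out. Of 752 values under the alternatives other than leaving out a library, 724 kept their direction and their side of the threshold, and of 840 with a library left out, 819 did. The number of the 10 genes called stayed between 8 and 10 for siFem1b/Keap1, 7 and 9 for siFem1b and 7 and 8 for siKeap1, each against siCont, and between 3 and 5 for the interaction. Trim63 was not tested where at least 5 CPM was required, nor in siKeap1 against siCont where the compared groups alone were fitted. Values that changed sign were not called in either setting. Irs2 in siFem1b against siCont was 0.0156 with library totals and 0.0570 in the first run alone. Foxo1 in siFem1b/Keap1 against siFem1b was 0.00675 with library totals and 0.0204 in the second run alone, and ran between -0.0568 and 0.0123 with a library left out, where Trim63 ran between -0.0268 and 0.307. The Gadd45a interaction was -0.00299 with DESeq2 size factors, -0.00826 with at least 5 CPM, -0.179 in the first run alone, -0.0611 with the length offset and -0.00345 in the DESeq2 Wald test, and between -0.0561 and 0.0785 with a library left out. The Foxo4 interaction was 0.0244 in the first run alone. Further calls were lost for Gadd45a in siFem1b/Keap1 against siFem1b (0.17, first run alone), Foxo3 in siFem1b against siKeap1 (0.11, length offset) and Gadd45a there (0.15 in the second run alone, 0.18 with the length offset), and the Txnip interaction was called with no filter (0.29). Over all genes the interaction was called in 929 genes in the first run alone and in 841 with the length offset, against 1667; the cause was not tested. With library totals, 61.7% of called genes were higher in siFem1b/Keap1 against siKeap1, beside 50.3% with TMM. The same replicate number did not clearly pair libraries. Deviations from the group means correlated between -0.53 and 0.42 for same-numbered libraries (median -0.05, over 0.1 in 6 of 18 pairs). For libraries with different numbers they correlated between -0.59 and 0.56 (median 0.02, over 0.1 in 13 of 36). Libraries did not all correlate best with their own number. With 3 libraries per group these correlations cannot exclude pairing. A replicate block left 8 of the 10 genes called in siFem1b and in siKeap1 and 10 in siFem1b/Keap1 against siCont, and 4 in the interaction, as without it, and over all genes 8891, 5926, 9723 and 1482 were called. Depth limits Trim63, at 1 to 53 counts per library.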

Other observations

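The authors' estimates also divide the reads of a gene between its overlapping transcripts. Foxo3-203, the main Foxo3 transcript, held 88.2 ± 2.26% in siFem1b/Keap1, 86.7 ± 5.35% in siFem1b and 79.3 ± 0.45% in siKeap1, against 78.2 ± 1.88% in siCont of the Foxo3 abundance per length (SD, n = 3 each). Pdk4-201 held 90.4 ± 7.01% in siFem1b/Keap1, 90.4 ± 8.41% in siFem1b and 83.9 ± 4.7% in siKeap1, against 84.7 ± 1.16% in siCont of that of Pdk4. Txnip was divided mainly between 2 transcripts, and the share of Txnip-202 was 52.0 ± 2.41% in siFem1b/Keap1, 50.2 ± 4.47% in siFem1b and 60.0 ± 3.02% in siKeap1, against 59.7 ± 12% in siCont. Foxo1, Fbxo32 and Irs2 have 1 annotated transcript each. These shares were not tested.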
